A study of Mus musculus with 58 samples.

Results

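Interscapular brown fat burns fatty acids and glucose to make heat. The comparison described here asks how the ribosome-bound mRNA of brown adipocytes differed when mice that had lived in the cold were moved back to warmth. It took all 11603 rows of the deposited table and 10 of its 22 mRNA libraries, 5 labelled warm brown and 5 labelled cold brown. In the series, which holds 58 samples, warm brown mice had spent 1 week at 4 °C and then 4 weeks at 30 °C, while cold brown mice had spent 1 week at 4 °C. The same treatments gave 3 warm beige and 4 cold beige libraries from inguinal fat. They were used where the brown response is set against the beige one, and in the estimate of the spread. A further 5 warm white libraries, of mice born and kept at 30 °C, entered only the estimate of the spread. Mice were C57BL/6J on chow, and those of the brown and beige groups came from a stock temperature of 23 °C. All carried the NuTRAP transgene, in which Cre, driven by Ucp1 or Adipoq, switches on a GFP-tagged ribosomal protein, and the labels do not say which driver a library had. Age and sex are not given, warm mice were 4 weeks further from the start of cold than cold mice, and temperature and elapsed time cannot be told apart.

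In the cold, sympathetic nerves release noradrenaline, which raises cyclic AMP in brown adipocytes through beta-adrenergic receptors. Cyclic AMP drives lipolysis and the transcription of Ucp1, whose protein lets protons leak back across the inner mitochondrial membrane so that respiration yields heat instead of ATP. Near 30 °C mice need little such heat, and brown fat is known to take up a more lipid-laden form while its adipocytes persist. TRAP reads the mRNA on tagged ribosomes, so a change in mRNA amount and a change in the share on ribosomes cannot be told apart, nor can fewer cells of a type and less RNA per cell.

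The label was checked against markers of brown and other cell types. In all 10 libraries Ucp1 stood above 8 log2 CPM (log2 of the read count scaled to library size, CPM), while Hoxc9, a gene of inguinal fat, lay at or below the floor of -5 log2 CPM in every one. Markers of general adipocytes summed to 15537 to 17177 CPM in warm brown libraries and 16334 to 17103 CPM in cold brown libraries. The 18 fibroblast and preadipocyte markers summed to 1032 to 1206 CPM in warm brown libraries, against 179 to 322 CPM in cold brown libraries. Their defining gene Pdgfra averaged 2.08 ± 0.42 log2 CPM in warm brown and 1.29 ± 0.40 in cold brown libraries (SD, n = 5 each, as for every level below). The 18 endothelial markers summed to 191 to 329 CPM in warm brown libraries. In cold brown libraries 1 and 5 they summed to 290 and 274 CPM, against 83.6 to 96.5 CPM in the other 3. The 8 macrophage markers summed to 19.1 to 28.8 CPM in warm brown libraries and 7.63 to 12.4 CPM in cold brown libraries. The 15 measured skeletal muscle markers summed to 111 to 147 CPM in warm brown libraries, against 346 to 406 CPM in cold brown libraries, and 1 of them rose and 4 fell. Most of that sum was Mb, myoglobin, which brown adipocytes are also known to make, and Des, desmin. Mb averaged 4.83 ± 0.35 log2 CPM in warm brown and 7.66 ± 0.25 in cold brown libraries and fell by 2.83 ± 0.36 log2 units, while the muscle genes Tnni2 and Pvalb lay at or below -4.74 log2 CPM in every brown library. The part of these cells in the results was not tested. Depth is unknown, and Rn45s, a remnant of ribosomal RNA, made up 0.11% to 0.597% of the sum of warm brown libraries and 0.0575% to 0.0994% in cold brown libraries.

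Warming moved most of the measured transcriptome. Limma called 8274 of 11603 rows at an adjusted p under 0.05, which is 71.3%, with 4777 higher (41.2%) and 3497 lower (30.1%) in warm brown libraries. Each count of a gene group below is to be read against these 3 shares. A log2 unit is a 2-fold difference, and 1974 rows rose (17%) and 894 fell (7.7%) by at least that much. At least 16-fold changes were found for 89 rows that rose (0.767%) and 61 that fell (0.526%). The groups did not overlap for 7308 rows, or 63%, higher for 35.3% and lower for 27.6%. Within a group the libraries were alike, with a median SD per row of 0.134 log2 units in warm brown and 0.131 in cold brown, and Pearson correlations across rows of at least 0.982 in warm brown and 0.98 in cold brown, against at most 0.912 between them. Batches read from the floor rows differed by at most 0.005 log2 units in any row once group means were fitted. Batch spread within groups was thus absent from the deposited values, which makes libraries of a group look more alike. The 10 most abundant rows held 3.54% to 4.34% of the sum in warm brown libraries, against 5.78% to 7.2% in cold brown libraries. The median row differed by 0.13 log2 units, and other scalings moved that median by between -0.14 and 0.15. Calls smaller than this depend on the scaling, and some larger ones do too. Under quantile normalization Scd1, lower in the main test, stood 0.695 log2 units higher, and the call of Cidea was lost. Increases made up 57.7% of the calls, against 49.8% with quantile normalization, 50% with median-of-ratios scaling, 67.6% with a common total and 66.2% with totals computed without the 20 most abundant rows. The labels call each library a biological replicate without saying which animals it came from, so p-values measure spread between libraries. That spread was pooled over the 22 libraries of all 5 groups, so it can exceed or fall short of that of the brown ones. Ucp1, for example, had SDs of 0.32 in warm brown, 0.28 in cold brown and 1.72 in warm white libraries.

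**Figure D1:**
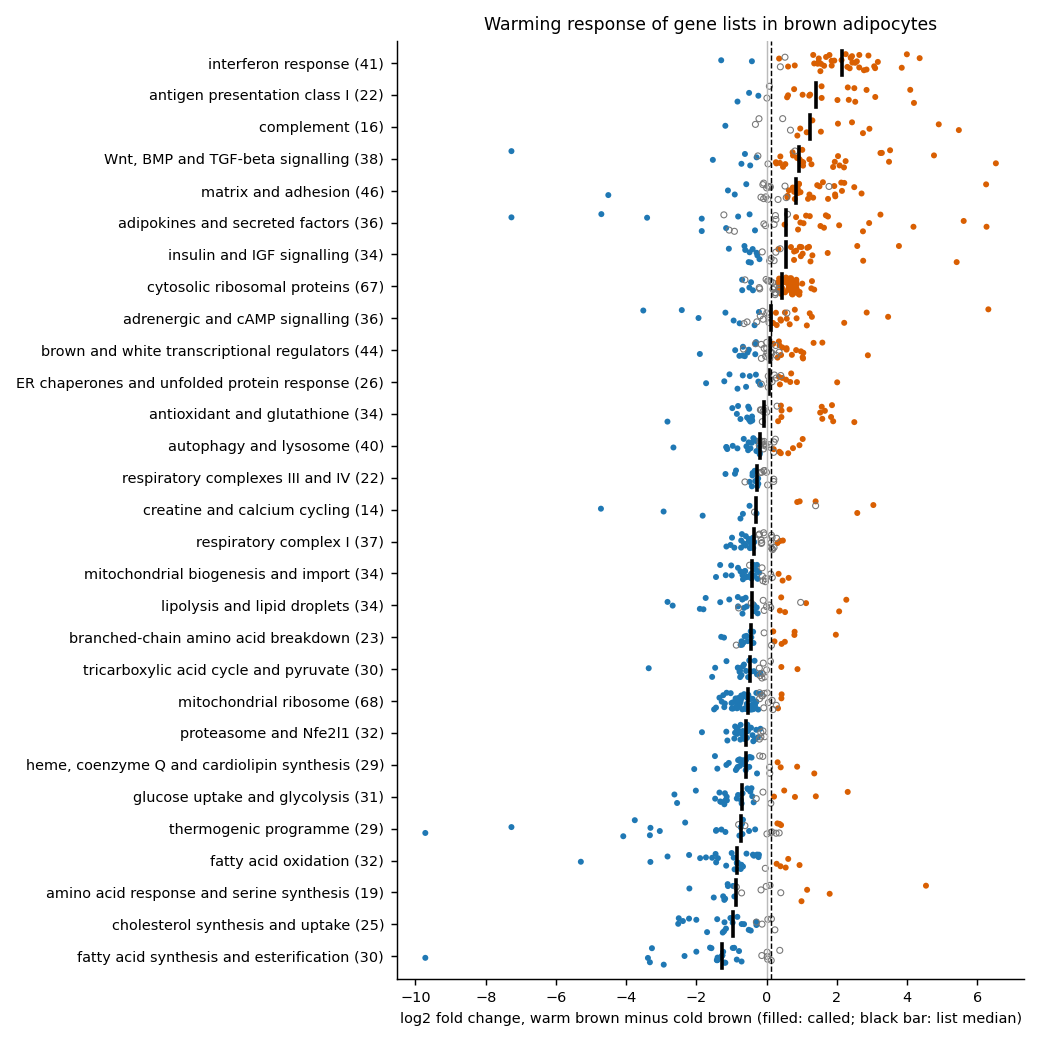
Log2 fold change of warm brown minus cold brown libraries (horizontal axis, log2 units) for every measured member of 29 gene lists, with 1 point a gene, filled (orange if higher, blue if lower) where limma called it, and a bar at each list's median. The dashed line marks the median of all 11603 rows, 0.13, and the medians of the interferon list (2.13) and the fatty acid synthesis list (-1.26) lie on opposite sides of it. The 29 lists are a chosen set. Cell type markers, lists with few measured genes and several others, such as imprinted genes and ion channels, are not shown.

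The heat-producing programme fell unevenly after warming. In GRCm38.p6, from RefSeq, its best-known gene Ucp1 lies at chromosome 8, 83290348 to 83298456 (uc009mjx.2). Genes that recur below are Adcy5 at chromosome 16, 35154494 to 35305743 (uc007zbj.1), Adrb3 at chromosome 8, 27225776 to 27230845 (uc009lie.1), Fasn at chromosome 11, 120805958 to 120825166 (uc007mut.1), Alpl at chromosome 4, 137741731 to 137796384 (uc033ifw.1) and Psmb8 at chromosome 17, 34198195 to 34201454 (uc012apv.1). Of the programme's 29 measured members 19 fell and 3 rose (2 to 5 rose under other scalings), with a median of -0.74 log2 units against 0.13 over all rows. Ucp1, the uncoupling protein, stood at 8.84, 9.20, 8.37, 9.07 and 8.73 log2 CPM in warm brown libraries, against 12.43, 12.49, 11.92, 11.98 and 11.94 log2 CPM in cold brown libraries. Every warm brown library lay below every cold brown library, and the gene fell by 3.31 ± 0.49 log2 units (SE; limma adjusted p = 3.13e-06). Even so, mean Ucp1 in warm brown cells was 468 CPM, against 4623 CPM in cold brown cells. Elovl3, which lengthens fatty acids and is induced by cold, stood at -0.21, -0.55, -0.41, -0.10 and -0.59 log2 CPM in warm brown libraries, against 9.19, 9.56, 9.41, 9.14 and 9.44 log2 CPM in cold brown libraries. No value of the groups came near the other's, and Elovl3 fell by 9.72 ± 0.49 log2 units (adjusted p = 1.24e-13). Dio2, which makes active thyroid hormone inside the cell, stood at 5.73, 6.29, 5.57, 6.16 and 5.31 log2 CPM in warm brown libraries, against 10.20, 10.15, 9.89, 9.55 and 9.69 log2 CPM in cold brown libraries. Its groups were apart, with the lowest cold value above the highest warm one, and it fell by 4.08 ± 0.62 log2 units (adjusted p = 4.36e-06). Bmp8b, a secreted factor that sensitises brown fat to noradrenaline, stood at -0.88, -1.33, -1.46, -0.40 and -1.33 log2 CPM in warm brown libraries, against 5.74, 6.39, 6.30, 6.35 and 6.16 log2 CPM in cold brown libraries. It fell by 7.27 ± 0.83 log2 units, with no overlap. Acot11, a thioesterase induced by cold in brown fat, averaged 8.03 ± 0.27 log2 CPM in warm brown and 11.07 ± 0.10 in cold brown libraries and fell by 3.04 ± 0.43 log2 units. Other members moved little beside these. Cidea, a lipid droplet protein, averaged 9.80 ± 0.09 log2 CPM in warm brown and 10.49 ± 0.04 in cold brown libraries and fell by 0.69 ± 0.25 log2 units, and its call was lost under quantile normalization (limma adjusted p = 0.201) and without cold brown libraries 1 and 5 (0.0538). Ppargc1a, the coactivator of mitochondrial genes, averaged 6.80 ± 0.14 log2 CPM in warm brown and 7.47 ± 0.24 in cold brown libraries and fell by 0.68 ± 0.12. Cpt1b, the carnitine palmitoyltransferase of the mitochondrial outer membrane, averaged 9.52 ± 0.17 log2 CPM in warm brown and 10.26 ± 0.02 in cold brown libraries and fell by 0.74 ± 0.19. Zfp516, an activator of Ucp1, went the other way and rose by 0.41 ± 0.07.

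Several transcription factors known for brown adipocytes showed no fall that passed the test. Prdm16, the regulator that keeps brown cells from a muscle or white fate, stood at 6.08, 6.05, 6.53, 6.17 and 6.42 log2 CPM in warm brown libraries, against 6.13, 5.80, 5.79, 5.79 and 5.97 log2 CPM in cold brown libraries. The groups overlapped, and the difference of 0.35 ± 0.16 log2 units did not pass (adjusted p = 0.0518). It passed as higher under several other settings, such as the spread of the brown libraries alone (adjusted p = 0.00557). Ebf2, a factor that marks committed brown precursors and opens brown-specific enhancers, averaged 7.30 ± 0.17 log2 CPM in warm brown and 6.94 ± 0.11 in cold brown libraries and differed by 0.36 ± 0.08, which passed although the groups overlapped (adjusted p = 0.000355). Ppara, the receptor for fatty acids, averaged 10.10 ± 0.09 log2 CPM in warm brown and 9.99 ± 0.14 in cold brown libraries and differed by 0.11 ± 0.14 (adjusted p = 0.494), though it passed as higher under quantile normalization (0.014). Esrrg, an orphan receptor of oxidative genes, averaged 6.56 ± 0.17 log2 CPM in warm brown and 6.56 ± 0.17 in cold brown libraries and differed by 0.01 ± 0.60 (adjusted p = 0.995). Lhx8, a homeobox gene used as a brown marker, rose by 1.33 ± 0.16 log2 units. In the whole list of 44 measured regulators 17 rose and 11 fell (7 to 13 fell under other scalings). Nr1h3, the liver X receptor that senses oxysterols, averaged 6.08 ± 0.14 log2 CPM in warm brown and 7.98 ± 0.13 in cold brown libraries and fell by 1.90 ± 0.10. Rbl1, a pocket protein of the retinoblastoma family, averaged 3.55 ± 0.13 log2 CPM in warm brown and 0.67 ± 0.32 in cold brown libraries and rose by 2.88 ± 0.19. Pprc1, a relative of Ppargc1a, rose by 1.04 ± 0.20.

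**Figure D2:**
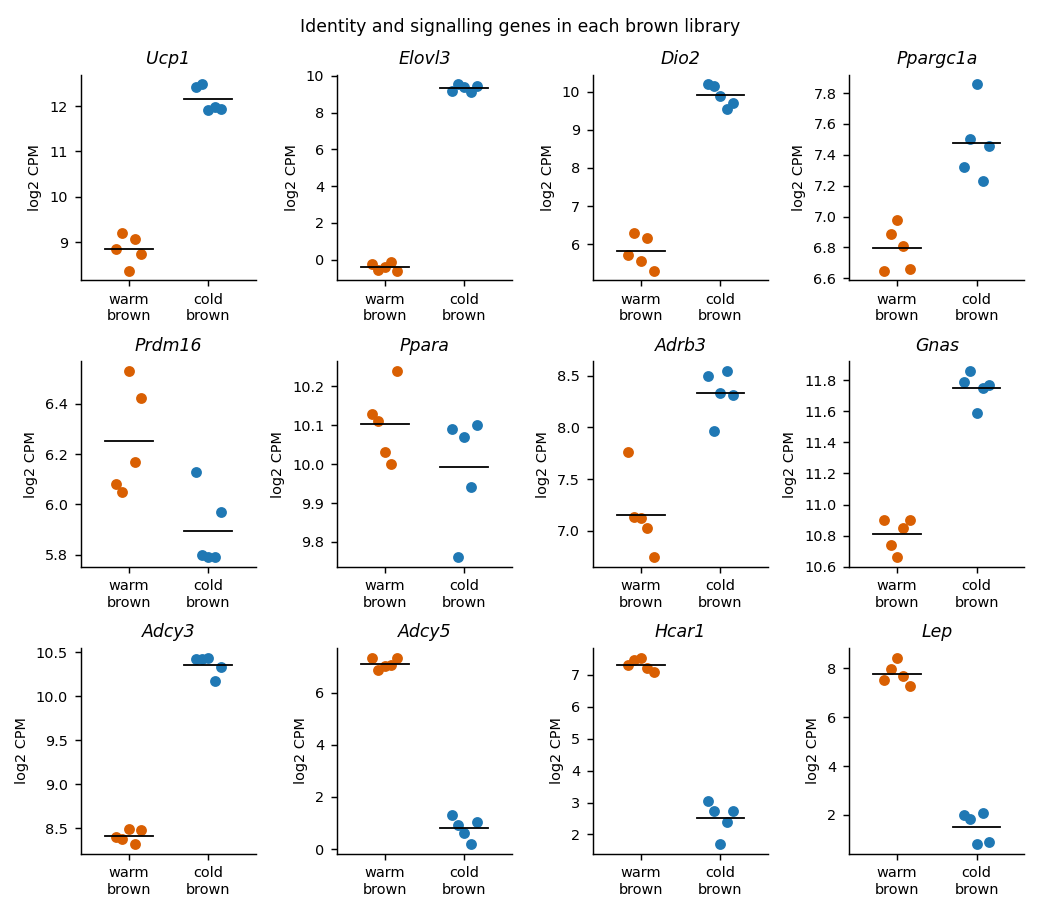
Log2 CPM (vertical axis) of 12 genes in each of the 5 warm brown (left, orange) and 5 cold brown (right, blue) libraries, with a line at each group mean. The means of Ucp1, Dio2 and Elovl3 lie over 3 log2 units apart, Prdm16 and Ppara overlap, and the means of Adcy5 and Lep stand more than 6 log2 units higher in warm brown libraries.

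The adrenergic route to cyclic AMP moved in both directions. Of 36 measured members 17 rose and 8 fell, with a median of 0.13 log2 units, equal to that of all rows. Adrb3, the beta3-adrenergic receptor of adipocytes, stood at 7.76, 7.13, 7.12, 7.03 and 6.74 log2 CPM in warm brown libraries, against 8.50, 7.97, 8.33, 8.55 and 8.31 log2 CPM in cold brown libraries. The warm values lay below all cold ones, and it fell by 1.18 ± 0.20 (adjusted p = 1.64e-05), a call lost within batch 1, a batch read from the deposited values in which 2 warm brown libraries face 2 cold ones (0.0557). Adrb1, the beta1 receptor, averaged 5.90 ± 0.29 log2 CPM in warm brown and 6.00 ± 0.17 in cold brown libraries and did not pass (adjusted p = 0.721). Among the cyclases that make cyclic AMP, Adcy5 stood at 7.32, 6.87, 7.02, 7.05 and 7.35 log2 CPM in warm brown libraries, against 1.32, 0.91, 0.60, 0.18 and 1.05 log2 CPM in cold brown libraries. It rose by 6.31 ± 0.18 (adjusted p = 3.11e-17), the largest increase of the list. Adcy3, the cyclase known to be induced by cold in brown fat, stood at 8.40, 8.38, 8.49, 8.32 and 8.48 log2 CPM in warm brown libraries, against 10.42, 10.42, 10.44, 10.17 and 10.33 log2 CPM in cold brown libraries. It fell by 1.94 ± 0.10, again with no overlap. Gnas, which encodes the stimulatory G protein subunit and is imprinted, averaged 10.81 ± 0.11 log2 CPM in warm brown and 11.75 ± 0.10 in cold brown libraries and fell by 0.94 ± 0.08. Rgs2, which shortens G protein signals, averaged 9.07 ± 0.22 log2 CPM in warm brown and 6.22 ± 0.23 in cold brown libraries and rose by 2.85 ± 0.20. Sik1, a kinase whose transcription follows cyclic AMP, averaged 3.46 ± 0.49 log2 CPM in warm brown and 6.97 ± 0.33 in cold brown libraries and fell by 3.51 ± 0.23. Pde10a, a phosphodiesterase, averaged 0.51 ± 0.51 log2 CPM in warm brown and 2.93 ± 0.72 in cold brown libraries and fell by 2.42 ± 0.76.

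Among receptors for metabolites, 10 of 21 were higher and 3 lower, and 14 higher and 2 lower without cold brown libraries 1 and 5. Within batch 1, 6 were higher. Hcar1, the lactate receptor that restrains lipolysis, stood at 7.30, 7.48, 7.54, 7.20 and 7.08 log2 CPM in warm brown libraries, against 3.05, 2.73, 1.69, 2.40 and 2.75 log2 CPM in cold brown libraries. The groups were far apart and it rose by 4.80 ± 0.22. Hcar2, the receptor for hydroxybutyrate, averaged 3.83 ± 0.28 log2 CPM in warm brown and -0.02 ± 0.41 in cold brown libraries and rose by 3.85 ± 0.26. Ffar4, a receptor for long-chain fatty acids, averaged 3.60 ± 0.26 log2 CPM in warm brown and 7.35 ± 0.25 in cold brown libraries and fell by 3.76 ± 0.17. Cnr1, the cannabinoid receptor, averaged 0.56 ± 0.37 log2 CPM in warm brown and 3.42 ± 0.54 in cold brown libraries and fell by 2.86 ± 0.24. In the thyroid hormone and retinoid list, where 9 of 21 rose and 4 fell, Cyp26b1, which degrades retinoic acid, averaged 2.88 ± 0.33 log2 CPM in warm brown and -1.55 ± 0.59 in cold brown libraries and rose by 4.43 ± 0.49. Rarg, a retinoic acid receptor, rose by 2.53 ± 0.16, and Rbp4, the retinol carrier, fell by 1.85 ± 0.18.

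Lipid synthesis was lower nearly throughout. Of 30 measured genes of fatty acid synthesis and esterification 24 fell and 0 rose (as many as 3 rose under another scaling), with a median of -1.26 log2 units. Fasn, fatty acid synthase, took 1510, 1468, 1563, 2034 and 2120 CPM in warm brown libraries, against 22073, 18179, 13494, 14263 and 16047 CPM in cold brown libraries. Every warm library lay far below every cold one, and Fasn fell by 3.27 ± 0.21 log2 units (adjusted p = 7.24e-12). Acly, which makes cytosolic acetyl-CoA, averaged 9.01 ± 0.23 log2 CPM in warm brown and 11.35 ± 0.44 in cold brown libraries and fell by 2.34 ± 0.25. Elovl6, which lengthens palmitate, averaged 8.83 ± 0.18 log2 CPM in warm brown and 11.76 ± 0.18 in cold brown libraries and fell by 2.93 ± 0.10. Agpat2, which adds the second acyl chain to glycerol phosphate, averaged 7.80 ± 0.31 log2 CPM in warm brown and 11.18 ± 0.10 in cold brown libraries and fell by 3.38 ± 0.16. Gk, the glycerol kinase that lets brown fat reuse glycerol, averaged 6.20 ± 0.16 log2 CPM in warm brown and 9.53 ± 0.22 in cold brown libraries and fell by 3.33 ± 0.11. Scd1, the desaturase, stayed abundant, at 8659, 8192, 6427, 10735 and 8422 CPM in warm brown libraries and 19216, 16728, 13034, 13494 and 13970 CPM in cold brown libraries. Its groups did not overlap and it fell by 0.85 ± 0.21 log2 units, but under quantile normalization, which sets the most abundant rows of all libraries level, the difference turned to 0.69. The regulators Srebf1 and Mlxipl did not pass, while the liver X receptor Nr1h3, given above, fell. Srebf1, the factor that drives lipogenic genes, averaged 8.56 ± 0.24 log2 CPM in warm brown and 8.54 ± 0.13 in cold brown libraries and did not pass (adjusted p = 0.858). Mlxipl, the carbohydrate response factor, averaged 7.03 ± 0.21 log2 CPM in warm brown and 7.17 ± 0.29 in cold brown libraries and did not pass (adjusted p = 0.333).

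Genes of cholesterol synthesis and uptake fell as a group, 20 of 25 with 0 rising and a median of -0.97 log2 units (0 to 1 rose under other scalings). Fdps, which makes farnesyl diphosphate, stood at 3.53, 3.58, 3.44, 3.71 and 3.42 log2 CPM in warm brown libraries, against 6.22, 6.29, 5.79, 6.00 and 5.98 log2 CPM in cold brown libraries. No warm library reached a cold one, and Fdps fell by 2.52 ± 0.17. Nsdhl, an enzyme of the later sterol steps, averaged 3.30 ± 0.26 log2 CPM in warm brown and 5.80 ± 0.24 in cold brown libraries and fell by 2.50 ± 0.21.

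Lipolysis and droplet genes fell more often than they rose. Of 34 measured members 20 fell and 6 rose (15 to 21 fell and 6 to 10 rose under other scalings). Pnpla2, the first triglyceride lipase, averaged 11.05 ± 0.11 log2 CPM in warm brown and 11.13 ± 0.11 in cold brown libraries and did not pass (adjusted p = 0.509). Lipe, the hormone-sensitive lipase, averaged 10.72 ± 0.01 log2 CPM in warm brown and 10.82 ± 0.08 in cold brown libraries and did not pass (adjusted p = 0.228). The levels of these main lipases overlapped between the groups, and both passed as higher under quantile normalization (adjusted p = 0.0487 for Pnpla2 and 0.00333 for Lipe), while Lipe passed as lower under median-of-ratios scaling (0.0135). Plin2, a droplet coat protein, averaged 7.36 ± 0.17 log2 CPM in warm brown and 10.04 ± 0.05 in cold brown libraries and fell by 2.68 ± 0.10. Acsl5, which activates fatty acids, averaged 7.88 ± 0.09 log2 CPM in warm brown and 10.70 ± 0.18 in cold brown libraries and fell by 2.82 ± 0.09. Hilpda, an inhibitor of Pnpla2, averaged 4.36 ± 0.20 log2 CPM in warm brown and 2.10 ± 0.14 in cold brown libraries and rose by 2.27 ± 0.16. Angptl4, the secreted inhibitor of lipoprotein lipase, stood at 9.86, 10.05, 9.78, 9.92 and 9.88 log2 CPM in warm brown libraries, against 7.91, 7.45, 7.77, 8.26 and 7.79 log2 CPM in cold brown libraries. It rose by 2.06 ± 0.23 without overlap, whereas Lpl, the lipase it inhibits, fell by 0.60 ± 0.09. The fatty acid transporter Cd36 fell by 0.57 ± 0.10.

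Fatty acid oxidation fell in 26 of 32 measured genes and rose in 5, with a median of -0.83 log2 units. The list also holds Acsl5, given above. Acot1, a cytosolic thioesterase, averaged -0.90 ± 0.51 log2 CPM in warm brown and 4.39 ± 0.33 in cold brown libraries and fell by 5.29 ± 0.62. Ehhadh, the bifunctional enzyme of peroxisomes, averaged 5.98 ± 0.48 log2 CPM in warm brown and 9.29 ± 0.19 in cold brown libraries and fell by 3.31 ± 0.19. Slc25a17, a carrier of the peroxisomal membrane, averaged 5.70 ± 0.14 log2 CPM in warm brown and 7.91 ± 0.04 in cold brown libraries and fell by 2.21 ± 0.10. Acad10 went the other way and rose by 0.93 ± 0.12.

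Mitochondrial genes fell mostly by less than 1 log2 unit. In the citrate cycle and pyruvate list 20 of 30 fell and 2 rose (2 to 7 rose under other scalings), with a median of -0.47. Mpc2, a subunit of the mitochondrial pyruvate carrier, averaged 7.53 ± 0.03 log2 CPM in warm brown and 9.00 ± 0.18 in cold brown libraries and fell by 1.47 ± 0.10. Pdhb, a subunit of pyruvate dehydrogenase, averaged 8.75 ± 0.15 log2 CPM in warm brown and 9.90 ± 0.13 in cold brown libraries and fell by 1.15 ± 0.10. Pdk3, a kinase that switches pyruvate dehydrogenase off, averaged -0.66 ± 0.51 log2 CPM in warm brown and 2.70 ± 0.23 in cold brown libraries and fell by 3.36 ± 0.25. Cs, citrate synthase, averaged 11.02 ± 0.10 log2 CPM in warm brown and 11.02 ± 0.10 in cold brown libraries and did not pass (adjusted p = 0.974), and stood higher under quantile normalization, at 0.34. Idh2 rose by 0.42 ± 0.10.

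In the respiratory chain, complex I had 19 of 37 measured subunits lower and 3 higher (3 to 11 higher under other scalings), with a median of -0.35. Ndufs8, an iron-sulphur subunit, averaged 7.56 ± 0.20 log2 CPM in warm brown and 8.70 ± 0.07 in cold brown libraries and fell by 1.15 ± 0.15. Ndufc2 rose by 0.46 ± 0.10. Complexes III and IV had 13 of 22 lower and 0 higher (7 to 15 lower and 0 to 3 higher under other scalings, and 8 lower without cold brown libraries 1 and 5). Uqcrc2, a core subunit of complex III, fell by 1.17 ± 0.11. Cox7a1, the isoform of heart and brown fat, averaged 7.18 ± 0.34 log2 CPM in warm brown and 7.80 ± 0.30 in cold brown libraries and did not pass (adjusted p = 0.304), though it passed as lower when the spread came from the brown libraries alone (0.00364). ATP synthase had 7 of 13 lower and 2 higher (1 to 3 higher under other scalings), the larger of them Atpif1, its inhibitor, which rose by 0.86 ± 0.10.

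The machinery that builds mitochondria fell more evenly. Of 68 measured proteins of the mitochondrial ribosome 54 fell and 3 rose (2 to 8 rose under other scalings), with a median of -0.53 and a lowest value of -1.50 ± 0.19 for Mrps22. Of 34 genes of biogenesis and import 23 fell and 3 rose (1 to 5 rose under other scalings). Timm8b, a chaperone between the membranes, averaged 5.53 ± 0.17 log2 CPM in warm brown and 6.98 ± 0.15 in cold brown libraries and fell by 1.44 ± 0.12. Phb, prohibitin, averaged 6.17 ± 0.14 log2 CPM in warm brown and 7.50 ± 0.07 in cold brown libraries and fell by 1.33 ± 0.08. For heme, coenzyme Q and cardiolipin synthesis 21 of 29 fell and 4 rose (2 to 5 rose under other scalings). Coq10b, which helps coenzyme Q work in the membrane, fell by 2.06 ± 0.13. Adck3, a kinase-like protein of coenzyme Q synthesis, averaged 11.55 ± 0.14 log2 CPM in warm brown and 10.20 ± 0.23 in cold brown libraries. It moved against its list, with no overlap, and rose by 1.35 ± 0.15. Alas1, the first enzyme of heme synthesis, rose by 0.87 ± 0.11. Of branched-chain amino acid breakdown 13 of 23 fell and 7 rose, with Mcee at -1.30 ± 0.07 and Aldh6a1 at 0.79 ± 0.10.

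Glucose use fell as well. Of 31 measured genes 23 fell and 5 rose (3 to 6 rose under other scalings), with a median of -0.71. Gys2, a glycogen synthase, averaged 4.85 ± 0.42 log2 CPM in warm brown and 7.47 ± 0.09 in cold brown libraries and fell by 2.63 ± 0.30. Pgd, of the pentose phosphate pathway that supplies NADPH, averaged 7.00 ± 0.13 log2 CPM in warm brown and 9.01 ± 0.27 in cold brown libraries and fell by 2.02 ± 0.11. Tkt, transketolase, averaged 10.13 ± 0.16 log2 CPM in warm brown and 11.60 ± 0.22 in cold brown libraries and fell by 1.47 ± 0.11. The glycogen phosphorylase of brain type, Pygb, rose by 1.40 ± 0.08. Aldoc, an aldolase, averaged 3.93 ± 0.13 log2 CPM in warm brown and 1.62 ± 0.33 in cold brown libraries and rose by 2.31 ± 0.49.

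Heat can also be made without Ucp1, by creatine and calcium cycling, and 7 of 14 measured genes fell and 5 rose. Alpl, the phosphatase that dephosphorylates phosphocreatine in thermogenic fat, stood at 1.97, 2.42, 1.81, 2.83 and 2.56 log2 CPM in warm brown libraries, against 6.75, 6.92, 6.96, 7.12 and 7.44 log2 CPM in cold brown libraries. All warm values lay below all cold ones, and it fell by 4.72 ± 0.30 (adjusted p = 4.42e-12). Ryr2, a calcium release channel, averaged 0.22 ± 0.30 log2 CPM in warm brown and 3.16 ± 0.36 in cold brown libraries and fell by 2.94 ± 0.69. Gamt, which makes creatine, stood at 2.95, 3.18, 2.70, 3.08 and 2.24 log2 CPM in warm brown libraries, against 0.56, -0.56, -0.33, -0.32 and -0.38 log2 CPM in cold brown libraries. Slc6a8, which takes creatine up, stood at 7.46, 7.53, 7.60, 7.61 and 7.78 log2 CPM in warm brown libraries, against 5.09, 5.08, 4.96, 4.99 and 4.97 log2 CPM in cold brown libraries. Both were higher in each warm library than in any cold one, and they rose by 3.04 ± 0.23 and by 2.58 ± 0.10.

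Among 36 measured secreted factors 18 rose and 9 fell. Lep, which encodes leptin, stood at 7.51, 7.96, 8.43, 7.69 and 7.29 log2 CPM in warm brown libraries, against 1.98, 1.83, 0.80, 2.08 and 0.90 log2 CPM in cold brown libraries. It rose by 6.26 ± 0.33 (adjusted p = 2.25e-13), with every warm library above every cold one. Clu, clusterin, stood at 7.34, 7.87, 7.35, 7.82 and 7.06 log2 CPM in warm brown libraries, against 2.06, 1.94, 1.76, 1.54 and 2.10 log2 CPM in cold brown libraries. It rose by 5.61 ± 0.32 without overlap. Fndc5, the precursor of irisin, averaged 1.39 ± 0.34 log2 CPM in warm brown and 6.10 ± 0.37 in cold brown libraries and fell by 4.71 ± 0.62. Apln, apelin, averaged 2.03 ± 0.14 log2 CPM in warm brown and 5.44 ± 0.33 in cold brown libraries and fell by 3.41 ± 0.45. Adipoq, adiponectin, averaged 9.61 ± 0.21 log2 CPM in warm brown and 9.36 ± 0.10 in cold brown libraries and did not pass (adjusted p = 0.111), though it passed under some other settings. Of 11 white adipocyte markers 8 rose and 0 fell. Nnat, neuronatin, an imprinted gene of white fat, stood at 7.33, 8.10, 7.30, 6.58 and 7.02 log2 CPM in warm brown libraries, against -0.52, -0.48, 0.25, -0.80 and -0.82 log2 CPM in cold brown libraries. It rose by 7.74 ± 0.30 with the groups far apart. Of 19 imprinted genes 12 rose and 1 fell (8 to 14 rose under other scalings), and Magel2, a gene of the Prader-Willi region, rose by 3.54 ± 0.66.

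Insulin and growth factor signalling moved in both directions. Of 34 measured members 18 rose and 10 fell. Pik3r1, the regulatory subunit of PI3-kinase, averaged 9.31 ± 0.33 log2 CPM in warm brown and 7.57 ± 0.37 in cold brown libraries and rose by 1.74 ± 0.23. Phlda1 averaged 4.16 ± 1.25 log2 CPM in warm brown and -1.24 ± 0.64 in cold brown libraries and rose by 5.41 ± 0.65. Socs1, a feedback inhibitor of cytokine and insulin receptors, averaged -0.38 ± 1.03 log2 CPM in warm brown and -4.14 ± 1.24 in cold brown libraries and rose by 3.76 ± 0.57. Socs3, its relative, averaged 1.55 ± 0.88 log2 CPM in warm brown and -1.20 ± 0.51 in cold brown libraries and rose by 2.75 ± 0.39. Mtor, the growth kinase, averaged 7.50 ± 0.09 log2 CPM in warm brown and 8.58 ± 0.11 in cold brown libraries and fell by 1.08 ± 0.08.

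Interferon response genes rose almost as a block. Interferons act through transcription factors that bind the interferon-stimulated response element. Sequences upstream of 3 interferon list members and the class I gene H2-T23 are shown here, with matches to the element's core in capitals. They were picked among genes with a large rise whose window held a match, so they do not stand for all genes that rose. The windows are the 250 bases before the RefSeq start in GRCm38.p6, read 5′ to 3′ on the gene's strand, and the letters searched were GAAA and, after any 2 bases, GAAA again, on either strand.
H2-T23, chr17:36032702-36032951, minus strand: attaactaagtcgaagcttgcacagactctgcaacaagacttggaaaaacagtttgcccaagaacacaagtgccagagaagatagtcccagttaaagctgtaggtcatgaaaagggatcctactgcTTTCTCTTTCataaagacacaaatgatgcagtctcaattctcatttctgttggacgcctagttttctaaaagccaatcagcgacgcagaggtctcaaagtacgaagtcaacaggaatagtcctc
Gbp2, chr3:142620413-142620662, plus strand: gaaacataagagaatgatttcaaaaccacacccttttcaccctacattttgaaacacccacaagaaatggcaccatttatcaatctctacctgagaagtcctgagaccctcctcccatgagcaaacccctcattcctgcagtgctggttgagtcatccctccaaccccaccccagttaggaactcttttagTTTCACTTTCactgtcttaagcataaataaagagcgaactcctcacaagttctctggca
Gbp7, chr3:142530086-142530335, plus strand: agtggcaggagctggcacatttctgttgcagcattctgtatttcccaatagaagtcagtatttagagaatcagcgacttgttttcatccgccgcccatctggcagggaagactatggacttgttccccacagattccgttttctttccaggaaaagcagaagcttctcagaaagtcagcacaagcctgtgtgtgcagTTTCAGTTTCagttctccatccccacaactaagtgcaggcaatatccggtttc
Ifit3, chr19:34583279-34583528, plus strand: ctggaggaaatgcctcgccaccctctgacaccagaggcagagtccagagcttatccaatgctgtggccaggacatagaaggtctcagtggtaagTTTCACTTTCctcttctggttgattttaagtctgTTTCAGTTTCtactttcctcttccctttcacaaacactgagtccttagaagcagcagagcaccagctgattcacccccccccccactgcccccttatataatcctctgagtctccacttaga
Over windows that also hold the 50 bases after the start, 18 of 33 windows of 28 matched interferon genes held the letters (54.5%), and 4 of 20 of 18 matched class I genes did. The share was 2.89% of 11038 windows of all measured symbols. It was 3.45% for windows of genes that rose and 2.54% for windows of genes that fell. The shares of the interferon and class I lists count members whether or not they rose. Members were listed as interferon or class I genes, so these shares are no result about the warming response. A sterol motif, TCACNCCAC, was held by 1 of 22 windows of the cholesterol list and by 1.19% of all measured ones. The cyclic AMP motif TGACGTCA was held by 2 of 27 windows of the thermogenic list and by 3.11% of all measured ones. The estrogen-related receptor motif TCAAGGTCA was held by 0 of those 27 windows and by 0.236% of all measured ones. A match is a description of the letters and not a site.

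In the interferon list 37 of 41 measured genes rose and 2 fell, with a median of 2.13 log2 units, and 38 rose without cold brown libraries 1 and 5. Within batch 1, where 2 libraries face 2, 31 rose. Gbp2, a GTPase against intracellular pathogens, stood at 5.77, 6.04, 5.92, 5.55 and 5.60 log2 CPM in warm brown libraries, against 1.83, 0.27, 1.42, 1.39 and 2.20 log2 CPM in cold brown libraries. Every warm library lay above every cold one, and it rose by 4.35 ± 0.26 (adjusted p = 1.4e-12). Gbp7, its neighbour in the same gene cluster, averaged 5.37 ± 0.21 log2 CPM in warm brown and 1.53 ± 0.43 in cold brown libraries and rose by 3.84 ± 0.18. Ifit3, which binds viral RNA complexes, stood at 1.05, 1.72, 1.87, 1.19 and 1.01 log2 CPM in warm brown libraries, against -1.16, -5.64, -2.19, -1.84 and -2.28 log2 CPM in cold brown libraries. It rose by 3.99 ± 0.52, although its level in cold brown cells was low. Iigp1, an immunity-related GTPase, averaged 4.21 ± 0.36 log2 CPM in warm brown and 1.04 ± 0.75 in cold brown libraries and rose by 3.16 ± 0.35. Dhx58 ran against the list, at 2.56 ± 0.28 log2 CPM in warm brown and 3.86 ± 0.20 in cold brown libraries, and fell by 1.30 ± 0.13. Ifi27, a mitochondrial member, fell by 0.42 ± 0.09. Macrophage markers were higher too in warm brown libraries, as given above, and Ptprc, which marks blood cells, averaged 0.89 ± 0.57 log2 CPM in warm brown and -0.58 ± 0.54 in cold brown libraries. Their part in the interferon values was not tested.

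Antigen presentation by class I rose with them, in 17 of 22 measured genes, while 3 fell. H2-T23, a non-classical class I gene, averaged 3.75 ± 0.22 log2 CPM in warm brown and 0.66 ± 0.58 in cold brown libraries and rose by 3.09 ± 0.19. H2-Q4, another class I gene of the same family, averaged 3.06 ± 0.18 log2 CPM in warm brown and 0.22 ± 1.03 in cold brown libraries and rose by 2.84 ± 0.29. Reads of near-identical H2 genes could have been split by the counting, so these single values are uncertain. Psmb8, an inducible catalytic subunit of the immunoproteasome, stood at 4.64, 4.93, 4.70, 4.51 and 4.53 log2 CPM in warm brown libraries, against 1.72, -0.84, -0.03, 0.46 and 1.57 log2 CPM in cold brown libraries. Psmb9, another of these subunits, stood at 3.73, 3.98, 3.97, 3.69 and 3.88 log2 CPM in warm brown libraries, against -0.04, -1.02, -0.43, -0.94 and 0.72 log2 CPM in cold brown libraries. Both had all warm libraries above all cold ones, and they rose by 4.09 ± 0.32 and by 4.19 ± 0.24.

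The standard proteasome went the other way. Of 32 measured members, all subunits but for Nfe2l1, 27 fell and 0 rose (23 to 31 fell and 0 rose under other scalings), with a median of -0.60 log2 units. Psmc4, an ATPase of the regulatory cap, stood at 5.74, 6.10, 5.60, 6.01 and 5.83 log2 CPM in warm brown libraries, against 7.80, 7.72, 7.58, 7.72 and 7.68 log2 CPM in cold brown libraries. It fell by 1.84 ± 0.09, with the groups apart. Psmd6 averaged 5.46 ± 0.15 log2 CPM in warm brown and 6.61 ± 0.15 in cold brown libraries and fell by 1.15 ± 0.13. Psmc2 averaged 5.22 ± 0.21 log2 CPM in warm brown and 6.34 ± 0.10 in cold brown libraries and fell by 1.12 ± 0.13. Psmb5, the constitutive subunit that Psmb8 replaces, averaged 5.79 ± 0.05 log2 CPM in warm brown and 6.33 ± 0.07 in cold brown libraries and fell by 0.53 ± 0.10. Psmb6, the one that Psmb9 replaces, averaged 6.43 ± 0.08 log2 CPM in warm brown and 6.48 ± 0.15 in cold brown libraries and did not pass (adjusted p = 0.614). Nfe2l1, the factor that drives proteasome genes in brown fat, averaged 10.03 ± 0.14 log2 CPM in warm brown and 10.20 ± 0.07 in cold brown libraries and did not pass (adjusted p = 0.226), though it passed as lower under median-of-ratios scaling (0.0414) and with the spread of the brown libraries alone (0.0415).

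**Figure D3:**
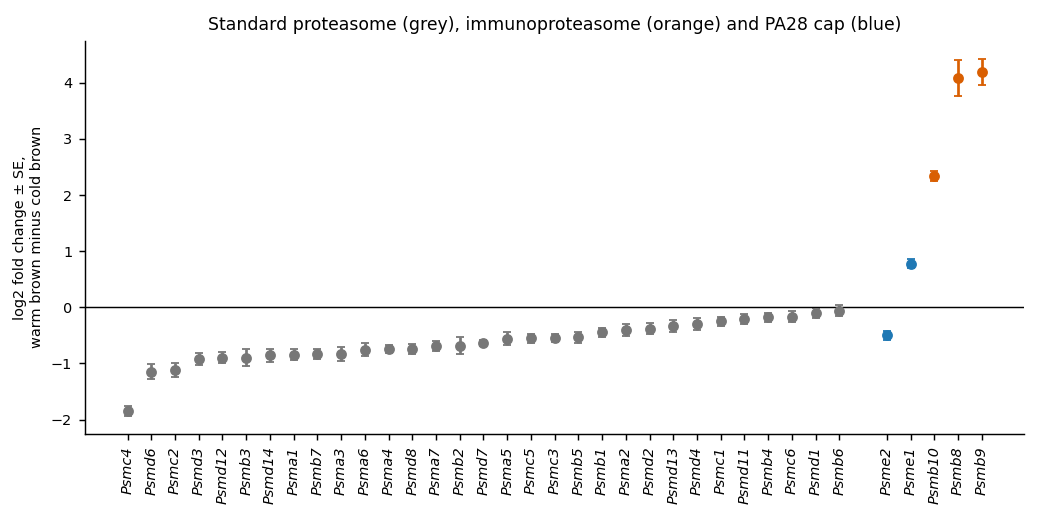
Log2 fold change of warm brown minus cold brown libraries (vertical axis, log2 units, with limma's standard error) for 31 subunits of the standard proteasome (grey), the immunoproteasome subunits Psmb8, Psmb9 and Psmb10 (orange) and the cap genes Psme1 and Psme2 (blue). The standard subunits lie at or below -0.06, while Psmb8 and Psmb9 lie above 4.

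Complement genes rose in 11 of 16 and fell in 1 (6 to 11 rose under other scalings and 7 within either batch). C4b averaged 5.26 ± 0.53 log2 CPM in warm brown and -0.21 ± 0.39 in cold brown libraries and rose by 5.47 ± 0.21. C2, which joins it in the classical pathway, averaged 2.86 ± 0.69 log2 CPM in warm brown and -2.04 ± 0.87 in cold brown libraries and rose by 4.90 ± 0.34. Cfd, the adipocyte-made factor D, stood at 10.61, 10.39, 10.49, 10.49 and 10.44 log2 CPM in warm brown libraries, against 8.30, 7.42, 7.59, 7.18 and 8.23 log2 CPM in cold brown libraries. It rose by 2.74 ± 0.17 without overlap. C3, the central component, averaged 8.81 ± 0.22 log2 CPM in warm brown and 9.99 ± 0.11 in cold brown libraries and fell by 1.18 ± 0.14. Class II presentation was thin, with 4 genes measured, of which H2-Aa rose by 1.49 ± 0.28 and H2-Eb1 fell by 1.31 ± 0.16.

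Of 67 cytosolic ribosomal proteins 47 rose and 5 fell (32 to 53 rose under other scalings), with a median of 0.44 log2 units. Rps4x rose by 1.35 ± 0.13, the largest of them. Processed copies of these genes are common, so single members are uncertain. Of 26 genes of endoplasmic reticulum folding 10 fell and 8 rose (6 to 13 rose under other scalings). Xbp1, a factor of the unfolded protein response, averaged 7.95 ± 0.18 log2 CPM in warm brown and 5.94 ± 0.29 in cold brown libraries and rose by 2.01 ± 0.15. Dnajb9, a chaperone that XBP1 is known to induce, averaged 4.17 ± 0.13 log2 CPM in warm brown and 5.89 ± 0.12 in cold brown libraries and fell by 1.73 ± 0.10. Atf4, the factor of the amino acid response, averaged 6.25 ± 0.20 log2 CPM in warm brown and 7.46 ± 0.25 in cold brown libraries and fell by 1.21 ± 0.14. In the amino acid list 9 of 19 fell and 4 rose. Mthfd2, of mitochondrial folate metabolism, averaged 1.41 ± 0.42 log2 CPM in warm brown and 3.61 ± 0.91 in cold brown libraries and fell by 2.20 ± 0.32. Phgdh, the first enzyme of serine synthesis, stood at 5.27, 5.39, 5.04, 4.97 and 5.15 log2 CPM in warm brown libraries, against -0.02, -0.61, 1.37, 1.69 and 0.72 log2 CPM in cold brown libraries. It rose by 4.53 ± 0.31 and the groups did not overlap. Of 40 genes of autophagy and lysosome 20 fell and 7 rose (14 to 26 fell and 6 to 12 rose under other scalings, and 13 fell within batch 1). Ctsz, a lysosomal cathepsin, averaged 7.44 ± 0.07 log2 CPM in warm brown and 10.09 ± 0.04 in cold brown libraries and fell by 2.66 ± 0.06, whereas Mitf, a factor of lysosomal genes, rose by 1.02 ± 0.15.

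Matrix genes rose in 28 of 46 and fell in 4, beside the fibroblast markers given above, which share several collagens with the list. Fras1, a basement membrane protein, averaged 5.72 ± 0.16 log2 CPM in warm brown and -0.53 ± 0.79 in cold brown libraries and rose by 6.25 ± 0.72. Col12a1 averaged 7.19 ± 0.36 log2 CPM in warm brown and 4.49 ± 0.22 in cold brown libraries and rose by 2.70 ± 0.27. Lamb2, a laminin chain, averaged 7.19 ± 0.10 log2 CPM in warm brown and 4.70 ± 0.29 in cold brown libraries and rose by 2.49 ± 0.15. Loxl1, which crosslinks elastin, stood at 2.16, 2.07, 2.17, 2.38 and 2.31 log2 CPM in warm brown libraries, against 6.51, 6.50, 6.85, 6.89 and 6.89 log2 CPM in cold brown libraries. It ran against the list, with no overlap, and fell by 4.51 ± 0.21. Col4a1, a main collagen of basement membrane, averaged 8.35 ± 0.15 log2 CPM in warm brown and 8.44 ± 0.03 in cold brown libraries and did not pass (adjusted p = 0.411).

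In Wnt, BMP and TGF-beta signalling 29 of 38 rose, with 6 lower and a median of 0.91. Apcdd1, an inhibitor of Wnt at the membrane, stood at 6.73, 7.01, 6.72, 6.18 and 6.41 log2 CPM in warm brown libraries, against 0.69, -1.12, 0.54, 0.77 and -0.45 log2 CPM in cold brown libraries. It rose by 6.52 ± 0.31 with no overlap. Bmp3, an antagonist of other BMPs, averaged 3.16 ± 0.39 log2 CPM in warm brown and -1.60 ± 1.02 in cold brown libraries and rose by 4.76 ± 0.40. Inhbb, the activin B subunit, averaged 3.16 ± 0.46 log2 CPM in warm brown and -0.35 ± 0.34 in cold brown libraries and rose by 3.51 ± 0.27. Lrp5, a Wnt co-receptor, averaged 5.85 ± 0.08 log2 CPM in warm brown and 7.38 ± 0.10 in cold brown libraries and fell by 1.53 ± 0.07. In the angiogenesis list 9 of 20 rose and 5 fell. Angpt1, the ligand of the endothelial receptor TIE2, averaged 7.42 ± 0.12 log2 CPM in warm brown and 4.04 ± 0.19 in cold brown libraries and rose by 3.38 ± 0.11. Ndrg1 averaged 5.78 ± 0.32 log2 CPM in warm brown and 1.28 ± 1.00 in cold brown libraries and rose by 4.50 ± 0.40. Egln3, an oxygen sensor and target of hypoxia factors, averaged 3.69 ± 0.24 log2 CPM in warm brown and 6.09 ± 0.22 in cold brown libraries and fell by 2.40 ± 0.15. Vegfa, the angiogenic factor, averaged 8.87 ± 0.15 log2 CPM in warm brown and 8.36 ± 0.09 in cold brown libraries and rose by 0.51 ± 0.10. Endothelial markers rose in 6 of 18 and fell in 0 (5 to 12 rose under other scalings of all libraries). Without cold brown libraries 1 and 5, where they were high, 15 rose. Leaving out the cold libraries with high values of these markers itself favours a rise, so the 15 are no separate result. Within batch 1, 0 rose.

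Ion channels moved in both directions, with 8 of 28 higher and 9 lower. Kcna2, a voltage-gated potassium channel, stood at 7.27, 7.33, 6.95, 6.95 and 7.15 log2 CPM in warm brown libraries, against 0.42, 0.08, 1.50, 1.04 and 1.38 log2 CPM in cold brown libraries. It rose by 6.25 ± 0.33 without overlap. Aqp1, a water channel, averaged 5.77 ± 0.23 log2 CPM in warm brown and 2.66 ± 1.22 in cold brown libraries and rose by 3.11 ± 0.41. Kcng4, a potassium channel modifier, averaged -2.93 ± 1.55 log2 CPM in warm brown and 2.83 ± 0.42 in cold brown libraries and fell by 5.76 ± 0.95. Scn4b, a sodium channel subunit, averaged -1.06 ± 1.00 log2 CPM in warm brown and 4.33 ± 0.55 in cold brown libraries and fell by 5.39 ± 0.99. Immediate early genes rose in 16 of 23 and fell in 3 (2 to 5 fell under other scalings). Myc averaged 4.42 ± 0.23 log2 CPM in warm brown and 0.84 ± 0.78 in cold brown libraries and rose by 3.58 ± 0.28. Egr1 averaged 2.97 ± 1.68 log2 CPM in warm brown and -0.61 ± 0.58 in cold brown libraries and rose by 3.57 ± 0.64. Atf3, a stress-induced factor, fell by 2.57 ± 0.48. Of 15 clock genes 7 rose and 2 fell, and Arntl, the core activator, averaged 4.36 ± 0.26 log2 CPM in warm brown and 4.14 ± 0.47 in cold brown libraries and did not pass (adjusted p = 0.501). Of 22 cell cycle genes 11 rose and 4 fell (2 to 5 fell under other scalings). Mcm4, a replication licensing factor, rose by 1.70 ± 0.13. In the antioxidant list 13 of 34 rose and 13 fell. Ucp2, a relative of Ucp1, averaged 7.33 ± 0.17 log2 CPM in warm brown and 5.44 ± 0.31 in cold brown libraries and rose by 1.89 ± 0.17. Hmox1, which breaks down heme, averaged 1.35 ± 0.31 log2 CPM in warm brown and 4.17 ± 0.39 in cold brown libraries and fell by 2.83 ± 0.24.

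Some abundant mRNAs changed by large amounts in CPM. Car3, carbonic anhydrase 3 of adipocytes and muscle, took 2856, 2856, 2226, 2521 and 2402 CPM in warm brown libraries, against 79.3, 93.7, 119, 71.5 and 135 CPM in cold brown libraries. Its groups were more than 10-fold apart at their nearest values, and it rose by 4.72 ± 0.17 log2 units (adjusted p = 3.68e-16). Gpx3, the secreted glutathione peroxidase, took 3191, 2721, 2539, 2610 and 2521 CPM in warm brown libraries, against 792, 605, 781, 809 and 838 CPM in cold brown libraries. Gpd1, the glycerol phosphate dehydrogenase, took 3040, 2896, 2759, 3281 and 2978 CPM in warm brown libraries, against 8364, 8079, 7231, 7968 and 7697 CPM in cold brown libraries. Gpx3 was higher and Gpd1 lower in each warm library than in any cold one. Pck1, which supplies glycerol for esterification, averaged 11.18 ± 0.04 log2 CPM in warm brown and 12.11 ± 0.15 in cold brown libraries and fell by 0.93 ± 0.15. The other large increases in CPM were those of Adck3, Impdh1, Ahnak, Txnip, Hipk3, Ivns1abp, Tns1 and Aplp2.

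**Figure D4:**
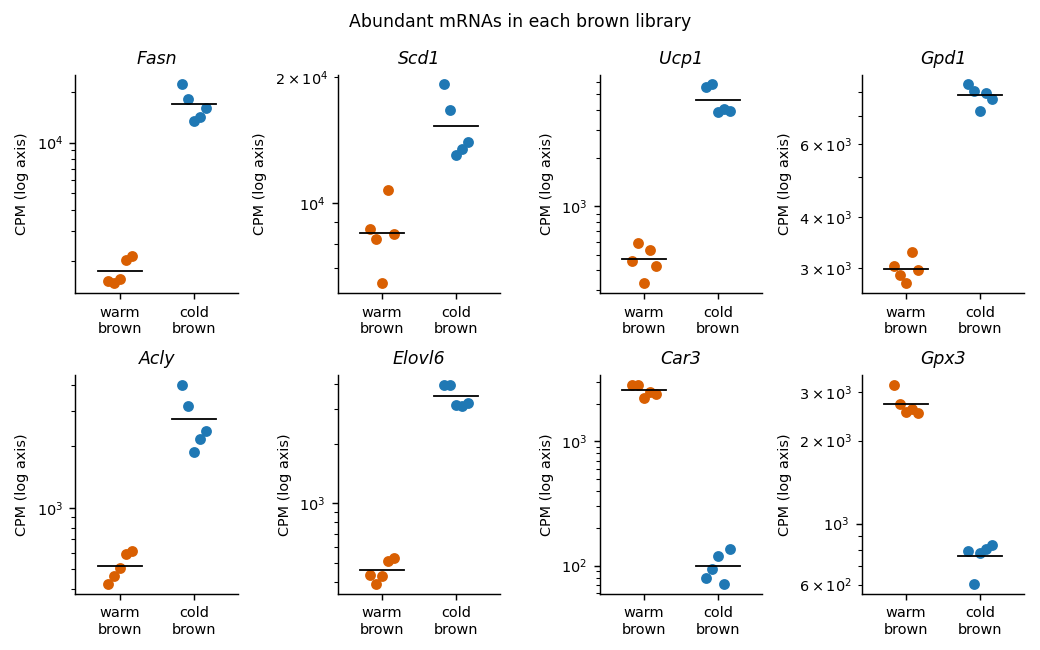
CPM on a log axis (vertical) of 8 abundant mRNAs in each of the 5 warm brown (left, orange) and 5 cold brown (right, blue) libraries, with a line at each group's mean CPM. Fasn, Scd1, Ucp1, Gpd1, Acly and Elovl6 are lower and Car3 and Gpx3 are higher in every warm library than in any cold one, with Scd1 turning higher under quantile normalization.

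Among genes above 2 log2 CPM in both groups the largest increase was that of Adamtsl3, at 7.15 ± 0.18 log2 CPM in warm brown and 2.14 ± 0.30 in cold brown libraries, which rose by 5.01 ± 0.19. Crip2 averaged 7.87 ± 0.28 log2 CPM in warm brown and 3.68 ± 0.62 in cold brown libraries and rose by 4.18 ± 0.28. Steap4, a metalloreductase of adipocytes, averaged 8.95 ± 0.25 log2 CPM in warm brown and 5.20 ± 0.17 in cold brown libraries and rose by 3.75 ± 0.17. Rnf144b, Strip2, Snn, Svep1 and Cyr61 rose by between 3.75 ± 0.17 and 4.18 ± 0.28. The largest decreases there were those of Aspg, an asparaginase, at 3.44 ± 0.48 log2 CPM in warm brown and 9.16 ± 0.15 in cold brown libraries with a fall of 5.73 ± 0.33, and of Slc25a34, a mitochondrial carrier. Slc25a34 averaged 3.23 ± 0.17 log2 CPM in warm brown and 8.73 ± 0.18 in cold brown libraries and fell by 5.50 ± 0.26. St3gal5, which makes the ganglioside GM3, averaged 3.30 ± 0.14 log2 CPM in warm brown and 8.12 ± 0.15 in cold brown libraries and fell by 4.82 ± 0.14. Noct, a rhythmic enzyme, averaged 3.23 ± 0.18 log2 CPM in warm brown and 7.29 ± 0.33 in cold brown libraries and fell by 4.06 ± 0.21. Dpep1, Chd3 and 2010003K11Rik fell by between 3.80 ± 0.21 and 4.24 ± 0.18. Pla2g2e, a secreted phospholipase, lay at or below the floor in every warm brown library and at 3.37 ± 0.61 log2 CPM in cold brown libraries, so no fold is given. A row of Cpne5 did the same, at 3.59 ± 0.46 log2 CPM in cold brown libraries.

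The brown response differed from the beige one for 5477 rows, 47.2% of those tested, with the brown effect higher for 3765 (32.4%) and lower for 1712 (14.8%). The split was 3139 higher and 3098 lower under quantile normalization, and 2919 higher and 2488 lower under median-of-ratios scaling. The beige libraries also differed in make-up. Rn45s took 4.32% to 5.72% of the sum in warm beige libraries, against 0.436% to 1.15% in cold beige ones. Of 15 skeletal muscle markers 11 rose and 3 fell in beige, with a median of 4.41 log2 units. Their part in the differences was not tested. Brown and beige libraries share none, and the test was the difference of the warming effects in the same limma fit. Whether brown and beige libraries came from the same mice is not given, and the test took no pairing. Of 29 thermogenic genes 22 had the higher effect in brown cells, that is, mostly the smaller fall. Ucp1 fell by 3.31 ± 0.49 in brown cells and by 10.31 ± 0.60 in beige cells, a difference of 7.00 ± 0.77 (adjusted p = 1.59e-07). Cox7a1 differed by 4.70 ± 0.84, with -0.62 ± 0.53 in brown cells and -5.32 ± 0.64 in beige cells. Fabp3, the fatty acid carrier of heart and brown fat, differed by 5.69 ± 0.93, with -0.44 ± 0.59 in brown cells and -6.13 ± 0.72 in beige cells. Tfrc, the transferrin receptor, differed by 4.24 ± 0.39, with -0.81 ± 0.25 in brown cells and -5.06 ± 0.30 in beige cells. In brown cells these 3 stood within 1 log2 unit of no change.

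Mitochondrial lists also had higher effects in brown than in beige cells. Of 37 complex I subunits 32 had the higher effect in brown cells, with a median of -0.35 there and -1.50 in beige cells. Of 32 fatty acid oxidation genes 25 did, with medians of -0.83 and, in beige cells, -1.90. Fatty acid synthesis had medians of -1.26 in brown cells and -1.70 in beige cells, with 16 of 30 differing upward in brown. Interferon genes had medians of 2.13 in brown cells and 1.36 in beige cells, and 37 rose in brown and 35 in beige. Of the 41 genes 14 differed upward in brown, a share near the 32.4% of all rows. Class I genes had medians of 1.40 in brown cells and 1.92 in beige cells, with 5 of 22 differing upward and 6 downward in brown. Fasn fell by 3.27 ± 0.21 in brown cells and by 3.09 ± 0.26 in beige cells, and the difference of -0.17 ± 0.33 did not pass (adjusted p = 0.697).

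Some genes went opposite ways, with 458 rows that rose in brown and fell in beige cells and 196 that did the reverse, 3.95% and 1.69% of those tested. Adck3 rose by 1.35 ± 0.15 in brown cells and fell by 2.10 ± 0.18 in beige cells. Magel2 rose by 3.54 ± 0.66 in brown cells and fell by 2.85 ± 0.80 in beige cells. Adrb3 fell by 1.18 ± 0.20 in brown cells and rose by 0.67 ± 0.24 in beige cells. Nnmt, which methylates nicotinamide in fat, differed by -2.35 ± 0.24, with -1.52 ± 0.15 in brown cells and 0.83 ± 0.18 in beige cells. Other genes were called in 1 of the cell types alone and also differed between them. Crip2 rose by 4.18 ± 0.28 in brown cells and stood at -0.56 ± 0.34 in beige cells (adjusted p = 0.142). Mt2, a metallothionein, had the lowest difference among genes at or above 2 log2 CPM in all 4 groups, -3.60 ± 0.38, with -0.30 ± 0.24 in brown cells and 3.30 ± 0.29 in beige cells. Each of these differences passed the test.

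**Figure D5:**
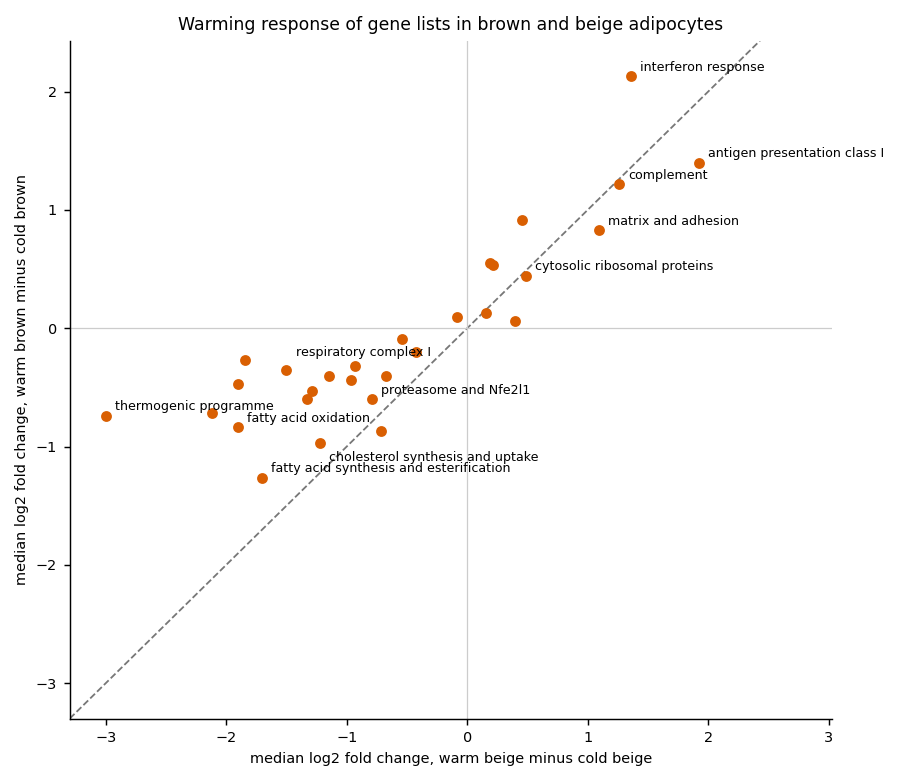
Median log2 fold change of warm minus cold libraries for each of 29 gene lists in brown cells (vertical axis, log2 units) against beige cells (horizontal axis, log2 units), with the line of equal change. Above the line lie 22 lists, those of mitochondria and heat production among them, with complex I at -0.35 in brown and -1.50 in beige cells. Over all rows the brown effect was called higher for 32.4% and lower for 14.8%, a split that depends on the scaling.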

How the data were processed

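GFP-tagged ribosomes were pulled down from fat of NuTRAP mice and their RNA was sequenced, with ribosomal RNA depleted, per the labels' protocols. The submitters' processing notes name HISAT2, Picard, featureCounts, edgeR and the build mm10, without roles. The deposited values are log2 CPM (log2 of counts scaled to library size) of 22 libraries, and the table's name and the repeated offsets of its floor rows point to a batch adjustment that no label describes. Depth is unknown, since whole reads could not be recovered. In units of the total that CPM should give, the antilogs summed to 0.948 to 0.984 in libraries of warm brown cells, against 1.04 to 1.10 in those of cold brown cells.

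Limma 3.58.1 in R 4.3.3 fitted the deposited log2 CPM of 5 groups with its trend option, with 1 mean a group, no covariate and 17 residual degrees of freedom. Tests were two-sided, and p-values were adjusted by Benjamini-Hochberg over 11603 rows at a threshold of 0.05. All rows passed the filter of at least 1 CPM in at least 3 libraries. A value at or below -5 log2 CPM is called the floor. Batches were read from the floor rows: batch 1 holds 2 warm brown and 2 cold brown libraries, and batch 2 the other 3 of each.

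The genes and gene lists were chosen with earlier results of these data known. Named are, in each list, up to 4 of the largest called changes without overlap and up to 2 against the majority, with the largest changes over all rows in log2 units, in CPM and against beige cells, and the genes at the floor in 1 group. Adcy3, Adrb3, Ebf2, Pdgfra, Psmb5 and Vegfa were chosen after their values were seen, as were the illustrated proteasome genes Psmb10 and Psme1. For list members the row with the highest mean stood for its symbol. Promoter sequences and coordinates come from RefSeq, GRCm38.p6. The series' other 36 samples were not analysed here. Some genes that the naming rule would take are not reported here.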

Additional observations from a re-analysis of the deposited data

Results flagged for a closer look

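In single brown libraries 19 values stood apart from the other 4 libraries of their group, each by a gap that took over 0.710 of the group's range (Dixon's 95% value for 5 samples). Chance sets about 1 in 20 groups apart in this way. The number of groups looked at is not given, so the 19 cannot be set against that rate. No fault of a library is read from them.

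Among warm brown libraries, library 1 held Impdh1 at 11.11 and Kcng4 at -5.64 log2 CPM. Library 2 held Rbl1 at 3.77. Library 3 held Ctsz at 7.31, Inhbb at 3.97 and Ndrg1 at 6.33. Library 4 held Srebf1 at 8.98. Library 5 held Psmd6 at 5.20 and Tfrc at 6.87. The other 4 warm libraries had Kcng4 between -2.56 and -1.66 and Tfrc between 7.70 and 7.89.

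Among cold brown libraries, library 1 held C2 at -3.57, Gamt at 0.56, Lamb2 at 5.21 and Rbp4 at 6.82 log2 CPM. Library 2 held Dpep1 at 7.07, Gpx3 at 9.24 and Ifit3 at -5.64. Library 3 held Psmb5 at 6.21, and library 4 held Mt2 at 3.60 and Lamc3 at 6.65. The other 4 cold libraries had Ifit3 between -2.28 and -1.16 and Rbp4 between 5.63 and 5.83.

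For 18 named genes the brown warming effect differed from the beige one in limma's test of the difference, as it did for 47.2% of all 11603 rows. Many of them were named because their differences were among the largest that passed, so their passing is no separate result. The brown effect was the higher one, in log2 units, by 7.00 for Ucp1, 5.69 for Fabp3, 5.05 for Acot11, 4.75 for Crip2, 4.70 for Cox7a1, 4.67 for Cpt1b and 4.24 for Tfrc. It was also higher by 3.30 for Dio2, 2.95 for Lep, 2.12 for Cidea and 1.29 for Ppargc1a. It was higher by 3.84 for Elovl3, which turned to -0.320 with 5 CPM added before the log (adjusted p = 0.0284) and was not called with 1 CPM added. The difference was -3.60 for Mt2, -2.87 for Lamc3, -2.61 for Endod1, -2.57 for Hip1r, -2.48 for Rgl1 and -2.35 for Nnmt.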

How the results depend on the processing

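The warm minus cold brown count of 8274 called rows was 6110 to 9038 under the other settings tried, and 7902 to 8172 when brown libraries were left out. With 5 CPM added before the log, 1384 rows were called with at least 2-fold change, and 1217 for brown minus beige. For brown minus beige, 3098 rows were called lower under quantile normalization. Within batch 1, where 1 warm beige library stands alone and is assumed to vary like the others, 2363 were called, 1952 higher and 411 lower.

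Under quantile normalization 4 differences changed sign, to 0.345 for Cs, 0.262 for Lipe, 0.229 for Pnpla2 and 0.695 for Scd1, and the calls of H2-Aa (adjusted p = 0.0988), Ifi27 (0.331), Pdgfra (0.488) and Ptprc (0.237) were lost. The Elovl3 difference of brown minus beige was -0.320 with 5 CPM added and 0.229 with 1 CPM added. The calls of Socs1 (0.112), Pdgfra (0.0626) and Ptprc (0.169) were lost with 5 CPM added. Within batch 1 the calls of Ebf2 (0.173), Aqp1 (0.0513), Egr1 (0.0543), H2-Aa (0.0599), Pdgfra (0.213) and Ptprc (0.1) were lost. The cause was not tested.

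With the replicate block, 8827 rows were called for warm minus cold brown and 5597 for brown minus beige. The numbers do not pair warm with cold brown libraries. Same-numbered ones had correlations of deviations of -0.11, -0.034, -0.02, -0.04 and 0.148, and 0 of 5 matched their own number best. Brown and beige libraries were not checked for pairing, so the block says nothing about mice that they may share.

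Depth is unknown, so the precision of values near the floor cannot be given.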
